A study of Mus musculus with 12 samples.

Results

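The genes described here were 10 cytokine and chemokine genes that B cells can make, followed through activation, clonal expansion and differentiation into plasmablasts. They were taken by name: each is the row of the deposited count table whose Entrez gene ID belongs to Ccl3, Ccl4, Ccl22, Il10, Il6, Tnf, Lta, Ltb, Tgfb1 or Ebi3. All 10 were among the 27179 genes of the table, and all 10 were among the 12750 genes tested. RNA-Seq covered 12 libraries of splenic B cells from male C57BL/6 mice, 2 biological replicates for each of 6 stages. Naive cells had no treatment and were sorted by surface markers that included TCRβ-, B220+, IgM+ and IgDhi. The other stages began with B cells isolated by negative selection and cultured with lipopolysaccharide (LPS, 25 μg/ml), a bacterial cell wall product that activates B cells through TLR4. Undivided, activated cells (CD69+, with the highest level of the division dye CellTrace Violet) were sorted at 3, 10 and 33 h. On day 4, LPS cultures grown at a lower density were sorted into expanded B cells, which were CD22+ and CD138-, and plasmablasts, which were CD22- and CD138+. The way of isolation, the culture and LPS all separate naive cells from the rest and cannot be told apart in a comparison with them. Culture density and sorting markers likewise separate the undivided cells from those of day 4, and cannot be told apart from stage there.

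Cytokines and chemokines are secreted or membrane-bound proteins through which immune cells direct each other. Chemokines attract cells that carry the matching receptor, members of the TNF family act on death-domain or NF-κB signalling receptors, and IL-10 and TGF-β1 restrain immune responses. B cells make many of them after activation through Toll-like receptors, and lymphotoxin from B cells is known for its part in organising the follicles of the spleen. Many of these mRNAs carry AU-rich elements, which make them short-lived.

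Libraries held between 23026619 and 60585587 counts. A gene with at most 3 counts in both libraries of a stage was taken to be at the floor there. The summed level of 8 B cell markers ran from 2093 to 12263 CPM (counts scaled to the library total) over the libraries, lowest in plasmablasts. Naive libraries also held transcripts that mark other cells: the 11 markers of monocytes, macrophages and neutrophils summed to 172 to 335 CPM there, with a mean of 93.1 CPM for Lyz2, and the 4 erythroid markers to 90.0 to 125 CPM. From 3 h on Lyz2 was at or below 0.0481 CPM in every stage mean and the erythroid sum at or below 1.44 CPM. The monocyte list still summed to 115 to 164 CPM after 10 h, of which Mpeg1 gave 125 CPM, with 6 of its 11 genes at 3 counts or fewer. Markers of T cells (4.33 to 5.18 CPM) and NK cells (17.4 to 20.2 CPM) were low in naive cells, and at 3, 10 and 33 h between 6 and 8 of the 9 T cell markers had 3 counts or fewer. The T cell list summed to 67.1 and 73.6 CPM in plasmablasts, where Cd28 alone had 67.9 CPM. Among the chains of the T cell receptor complex, Cd3e was at 0.0119 CPM in expanded cells and had no count in plasmablasts, whereas Cd3g rose at both steps (adjusted p = 0.008 and 0.013), to 0.316 and 0.853 CPM. Cd3d, Cd247 and Cd4 lay between 0.114 and 0.346 CPM on day 4. Of 8 dendritic cell markers, Zbtb46 reached 59.5 CPM after 3 h and Flt3 54.3 CPM in expanded cells, whereas Clec9a had no count from 3 h on. The part of these cells in the values below was not tested. In bulk RNA a smaller share of producing cells and less RNA per cell cannot be told apart.

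Among the genes, 2 clusters were neighbours in the genome. Ltb (GRCm38, chr17:35194439-35196320, plus strand, 3 exons), Tnf (chr17:35199381-35202007, minus strand, 4 exons) and Lta (chr17:35203165-35205351, minus strand, 4 exons) lie within 10.9 kb, with 3.06 kb between Ltb and Tnf and 1.16 kb between Tnf and Lta. Ccl3 (chr11:83647844-83649355, minus strand, 3 exons) and Ccl4 (chr11:83662584-83664683, plus strand, 3 exons) are 13.2 kb apart in the GENCODE annotation. RefSeq lists a longer Ccl4 span that overlaps Ccl3 by 755 bases on the opposite strand. The length deposited for Ccl4, 660 bases, equals the 660 exonic bases of the shorter GENCODE gene. Ccl22 lies on chromosome 8, Il10 on chromosome 1, Il6 on chromosome 5, Tgfb1 on chromosome 7 and Ebi3 elsewhere on chromosome 17.

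The promoters of 6 of these genes are shown because they hold the genes that moved apart within the TNF cluster (Tnf, Lta and Ltb), the pair that peaked together after 10 h (Il6 and Ccl22) and a gene that peaked after 3 h (Ccl3). Each is the 300-base RefSeq window (GRCm38.p6) from 250 bases before to 50 bases after the start, 5′ to 3′ on the strand of the gene. Capitals mark matches, on either strand, to an NF-κB-like motif (GGG and CC parted by 5 bases of any kind), TGANTCA (AP-1 like) or TATAAA. The windows are chr17:35201958-35202257 (minus strand) for Tnf, chr17:35205302-35205601 (minus strand) for Lta, chr17:35194257-35194556 (plus strand) for Ltb, chr5:30012864-30013163 (plus strand) for Il6, chr8:94745434-94745733 (plus strand) for Ccl22 and chr11:83649329-83649628 (minus strand) for Ccl3.
Tnf: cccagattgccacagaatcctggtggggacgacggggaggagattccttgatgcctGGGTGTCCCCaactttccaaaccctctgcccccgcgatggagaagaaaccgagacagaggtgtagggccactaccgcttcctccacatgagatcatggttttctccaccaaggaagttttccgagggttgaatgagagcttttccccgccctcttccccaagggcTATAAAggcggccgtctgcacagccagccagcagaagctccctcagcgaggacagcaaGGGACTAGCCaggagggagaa
Lta: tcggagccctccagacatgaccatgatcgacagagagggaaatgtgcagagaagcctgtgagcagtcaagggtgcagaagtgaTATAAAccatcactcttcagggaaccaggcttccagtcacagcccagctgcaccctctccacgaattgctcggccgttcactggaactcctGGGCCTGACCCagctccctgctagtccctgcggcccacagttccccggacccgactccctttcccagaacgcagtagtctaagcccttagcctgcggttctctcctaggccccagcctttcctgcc
Ltb: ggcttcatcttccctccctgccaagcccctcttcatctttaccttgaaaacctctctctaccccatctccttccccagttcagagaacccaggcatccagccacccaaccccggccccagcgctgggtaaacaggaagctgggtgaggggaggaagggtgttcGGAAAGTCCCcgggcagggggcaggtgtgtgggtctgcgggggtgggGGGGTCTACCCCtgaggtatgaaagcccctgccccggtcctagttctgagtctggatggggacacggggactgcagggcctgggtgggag
Il6: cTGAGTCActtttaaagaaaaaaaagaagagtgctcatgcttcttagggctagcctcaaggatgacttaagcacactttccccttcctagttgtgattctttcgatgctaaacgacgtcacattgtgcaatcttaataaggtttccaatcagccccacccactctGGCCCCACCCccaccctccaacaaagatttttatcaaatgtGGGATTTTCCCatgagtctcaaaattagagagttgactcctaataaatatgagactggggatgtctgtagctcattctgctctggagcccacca
Ccl22: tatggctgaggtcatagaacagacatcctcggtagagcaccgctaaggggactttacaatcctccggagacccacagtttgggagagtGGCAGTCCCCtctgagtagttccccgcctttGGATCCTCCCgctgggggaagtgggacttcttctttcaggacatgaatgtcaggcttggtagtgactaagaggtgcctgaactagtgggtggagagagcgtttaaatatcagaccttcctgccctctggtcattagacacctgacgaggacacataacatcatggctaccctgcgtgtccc
Ccl3: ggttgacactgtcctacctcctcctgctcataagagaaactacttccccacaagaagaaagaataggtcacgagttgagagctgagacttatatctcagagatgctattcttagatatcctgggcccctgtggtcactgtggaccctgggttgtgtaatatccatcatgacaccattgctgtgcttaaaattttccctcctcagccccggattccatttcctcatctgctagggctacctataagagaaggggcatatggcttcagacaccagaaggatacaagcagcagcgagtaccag

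RefSeq windows were matched for 8 of the 10 genes, all but Il10 and Ccl4. The NF-κB-like motif was found in 7 of these 8, Ccl3 being the exception, and in 50.8% of the 32851 promoter windows of the table. Overlapping matches were joined in capitals, as in Il6, where a match on the plus strand (-44 to -35 from the start) and one on the minus strand (-43 to -34) share most of their bases. TGANTCA was found in Il6 alone of the 8 (-249 to -243), against 7.81% of all windows. TATAAA was found in Tnf (-29 to -24) and Lta (-167 to -162), against 13.6% of all windows. A match is a string of letters and not evidence of binding.

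Changes were tested with edgeR's glmTreat, which asks whether a fold change is larger than 1.5, with Benjamini-Hochberg adjustment over all 12750 genes at 0.05. A gene is said to rise or fall only where it passed. Of 50 tests (10 genes over 5 consecutive transitions), 28 passed, 14 of them rises and 14 falls. From naive cells to 3 h, 8 of 10 genes rose and 0 fell, where 21.0% of all tested genes rose and 24.3% fell. From 3 to 10 h, 2 rose and 6 fell, against 17.4% and 13.4% of all genes. From 10 to 33 h, 1 rose and 2 fell (10.1% and 4.45% of all genes), and from 33 h to expanded cells 2 rose and 2 fell (6.94% and 3.66%). From expanded cells to plasmablasts 1 rose and 4 fell, against 13.9% and 12.2% of all genes. The quasi-likelihood F-test, which asks for a change of any size, called 9, 8, 7, 6 and 9 of the 10 genes at these transitions and 71.0%, 62.3%, 45.5%, 39.6% and 56.9% of all genes. The median log2 fold change over the 10 genes was 4.01, -1.88, -0.51, -0.42 and -0.43 at the successive transitions, whereas over all tested genes it lay between -0.05 and 0.02. The libraries of the earlier and later stage did not overlap in RPKM for 10, 9, 8, 8 and 10 of the genes, where 82.6%, 78.4%, 74.0%, 73.5% and 83.2% of all genes did not. With 2 libraries a stage, an exact permutation test of 1 gene cannot go below p = 0.333, so the tests rest on the spread shared over all genes and stages. The stages differed in spread: the standard deviation of the log2 replicate ratio was 0.529 at 3 h and 0.303 to 0.385 at the others.

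**Figure D1:**
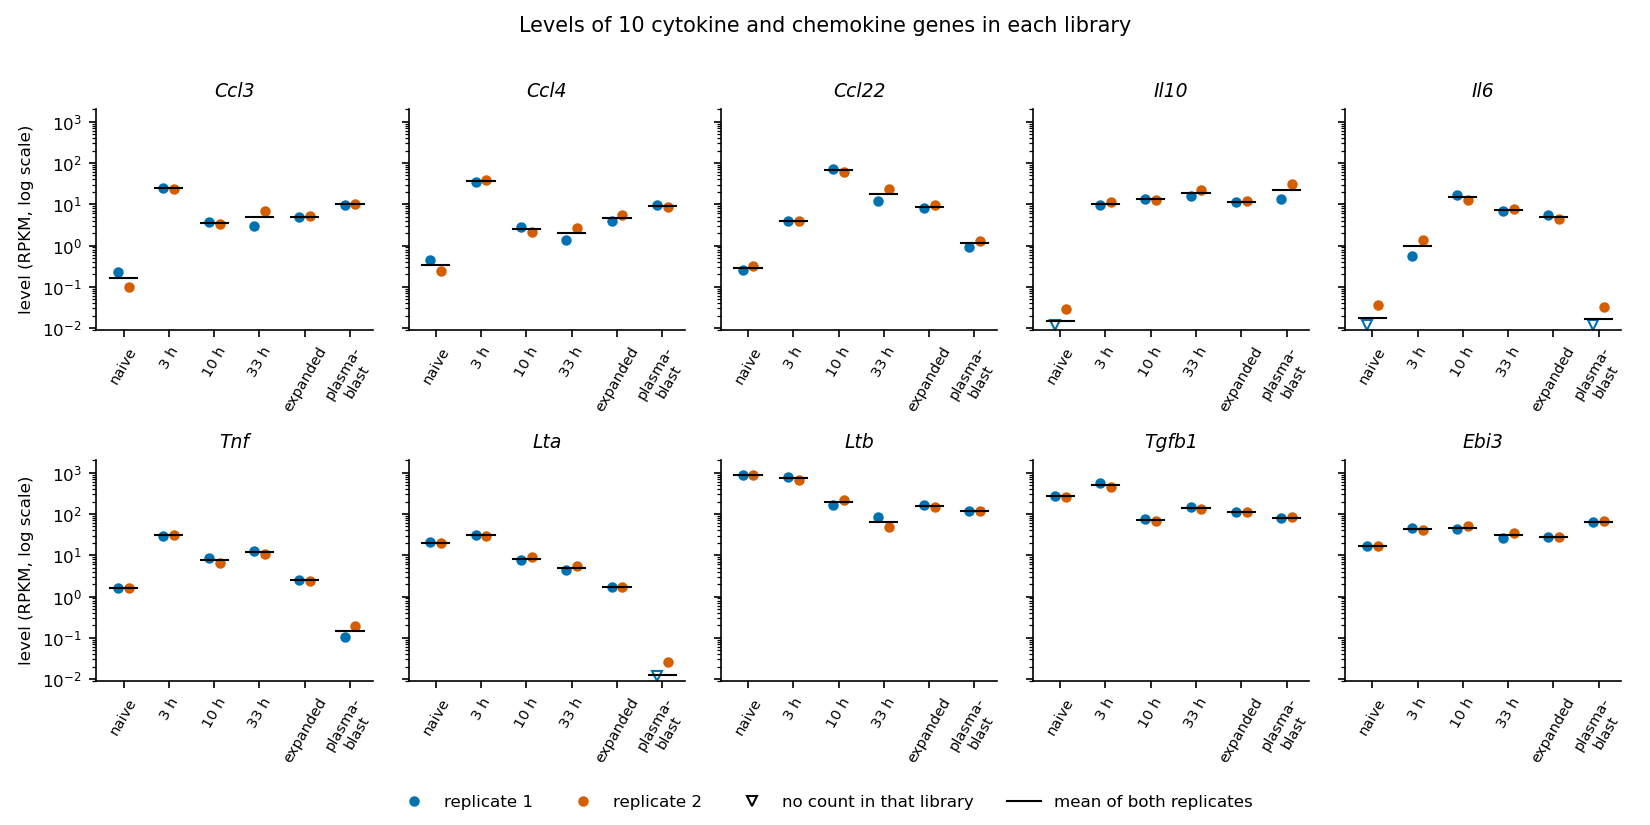
Level of each gene in each library, as RPKM on a log scale against stage, with 1 point per replicate, a bar at the mean of both, and an open triangle where a library had no count. Ccl3, Ccl4 and Tnf stand highest after 3 h and Ccl22 and Il6 after 10 h, and Il6 and Lta are at 0 or 1 count in plasmablasts.

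The genes had different peak stages. Levels are in RPKM (reads per kilobase of gene length, scaled to TMM-adjusted library sizes), so they can be set side by side between genes, and each pair of values gives replicates 1 and 2. By stage mean, Ccl3, Ccl4, Tnf, Lta and Tgfb1 stood highest after 3 h, Ccl22 and Il6 after 10 h, Il10 and Ebi3 in plasmablasts, and Ltb in naive cells. Ltb and Tgfb1 held 96.6% of the summed RPKM of the 10 genes in naive cells and 62.3% after 10 h, the lowest share. Without these genes, the sum of the other 8 was 39.3 RPKM in naive cells, 181 after 3 h, 162 after 10 h, 97.5 after 33 h, 67.0 in expanded cells and 107 in plasmablasts.

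Ccl3 and Ccl4 (MIP-1α and MIP-1β) encode chemokines that attract monocytes and T cells. Ccl3 was at 0.224 and 0.0982 RPKM in naive cells, from 6 and 2 counts, and at 24.9 and 23.8 RPKM after 3 h. It then stood at 3.76 and 3.25 after 10 h, 3.01 and 6.86 after 33 h, 4.82 and 5.09 in expanded cells and 9.54 and 10.3 in plasmablasts. The 3 h libraries were thus the highest of the 12, plasmablasts came next, and the 33 h replicates lay 2.28-fold apart, enclosing the levels after 10 h and in expanded cells. The log2 fold change was 7.13 (SE 0.46, adjusted p = 4.5e-08) from naive cells to 3 h and -2.79 (SE 0.29, adjusted p = 1.6e-05) from 3 to 10 h. Without naive replicate 1 the first of these was 7.89 and still called.

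Ccl4 went from 0.448 and 0.235 RPKM in naive cells to 35.3 and 38.6 after 3 h. Its later levels were 2.83 and 2.16 after 10 h, 1.33 and 2.64 after 33 h, 3.87 and 5.5 in expanded cells and 9.69 and 8.71 in plasmablasts. Like Ccl3, it was lowest in naive cells and highest after 3 h, with no overlap between these stages and any other. Ccl4 rose by 6.69 on the log2 scale to 3 h (SE 0.37, adjusted p = 9.5e-09) and fell by 3.88 to 10 h (SE 0.27, adjusted p = 3.8e-07). From 33 h to expanded cells Ccl4 rose by 1.29 (SE 0.29, adjusted p = 0.043). This last call was lost without 33 h replicate 1 (log2 fold change 0.82, adjusted p = 0.51) or expanded replicate 2 (1.02, adjusted p = 0.32), and narrowly without any single naive or plasmablast library (adjusted p = 0.053 to 0.054).

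The last step of Ccl3 and Ccl4 did not pass the test. From expanded cells to plasmablasts the log2 fold change was 1.0 for Ccl3 (SE 0.29, adjusted p = 0.094) and 0.98 for Ccl4 (SE 0.26, adjusted p = 0.088), and all plasmablast libraries stood above all expanded libraries. The F-test gave adjusted p-values of 0.0092 and 0.0064. Without either 33 h replicate, both genes passed glmTreat, Ccl3 at 0.015 and 0.016 and Ccl4 at 0.049. The ratio of Ccl3 to Ccl4 RPKM was 0.71 and 0.62 after 3 h, 1.33 and 1.5 after 10 h, 2.26 and 2.60 after 33 h, and between 0.93 and 1.24 on day 4. It was therefore higher after 10 h than after 3 h and higher again after 33 h, in both replicates each time, a description for which no test was run.

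Ccl22 encodes a chemokine (MDC) that attracts CCR4+ cells such as regulatory and Th2 T cells. It was at 0.261 and 0.321 RPKM in naive cells, 4.00 and 3.86 after 3 h, and 70.4 and 61.4 after 10 h. It then stood at 12.1 and 22.8 after 33 h, 7.99 and 9.58 in expanded cells and 0.935 and 1.30 in plasmablasts. The peak after 10 h stood above every other stage, and at that stage among the 10 genes Ccl22 was surpassed only by Ltb and Tgfb1. It rose at the first transition (log2 fold change 3.76, SE 0.40, adjusted p = 1.4e-05) and again at the second (4.07, SE 0.27, adjusted p = 5.8e-07). It fell by 1.92 to 33 h (SE 0.23, adjusted p = 0.00036). The step to expanded cells (-0.99, adjusted p = 0.12) did not pass, although it did without 33 h replicate 1 (-1.38, adjusted p = 0.0012). From expanded cells to plasmablasts Ccl22 fell by 2.95 (SE 0.30, adjusted p = 2.8e-05).

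Tnf encodes the inflammatory cytokine TNF, Lta lymphotoxin α and Ltb lymphotoxin β, which anchors lymphotoxin α at the cell surface. Although the genes are neighbours, their courses differed. Tnf was at 1.57 and 1.63 RPKM in naive cells, 29.4 and 31.3 after 3 h, 8.63 and 6.37 after 10 h, 12.9 and 10.7 after 33 h, 2.58 and 2.41 in expanded cells and 0.105 and 0.196 in plasmablasts. Its 3 h libraries stood above all others and its plasmablast libraries below all others. Tnf rose by 4.25 on the log2 scale to 3 h (SE 0.19, adjusted p = 1.6e-09) and fell by 2.02 to 10 h (SE 0.16, adjusted p = 2.6e-06). The step to 33 h (0.66, SE 0.16, adjusted p = 0.51) did not pass the fold threshold. Tnf then fell by 2.24 to expanded cells (SE 0.17, adjusted p = 6.8e-06) and by 4.00 to plasmablasts (SE 0.31, adjusted p = 7.5e-07).

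Lta was already at 20.6 and 19.4 RPKM in naive cells, and at 31.2 and 29.2 after 3 h. It then stood at 7.78 and 8.83 after 10 h, 4.44 and 5.36 after 33 h, 1.74 and 1.71 in expanded cells, and 0 and 0.0255 in plasmablasts, from 0 and 1 counts. Neighbouring stages did not overlap in any of these steps. The step to 3 h (log2 fold change 0.59, SE 0.13) did not pass glmTreat (adjusted p = 0.48), while the F-test gave an adjusted p of 0.0012. Lta fell by 1.86 to 10 h (SE 0.14, adjusted p = 1.9e-06) and by 1.5 from 33 h to expanded cells (SE 0.16, adjusted p = 0.00026). The step between, from 10 to 33 h, was -0.77 (SE 0.14, adjusted p = 0.17). Plasmablasts were at the floor, so the fall from expanded cells, though called (adjusted p = 2.2e-07), is given as a count ratio: 124-fold, with an exact 95% interval for counting error of 22 to 4930.

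Ltb was the highest of the 10 genes in all stages but 33 h. It was at 866 and 868 RPKM in naive cells, above 99.5% of tested genes, and at 794 and 654 after 3 h, a step that did not pass (log2 fold change -0.26, SE 0.21, adjusted p = 1). It fell by 1.90 to 10 h, to 168 and 220 RPKM (SE 0.21, adjusted p = 0.00013). By 33 h it had fallen by a further 1.58, to 82.1 and 47.8 RPKM (SE 0.21, adjusted p = 0.0016). Ltb rose by 1.27 to 164 and 149 RPKM in expanded cells (SE 0.21, adjusted p = 0.013), a call that was lost at an adjusted p of 0.053 to 0.07 without either 3 h library, 33 h replicate 2 or replicate 1 of expanded cells. In plasmablasts it was at 118 and 119 RPKM (log2 fold change -0.40, SE 0.21, adjusted p = 1). Within the cluster, from expanded cells to plasmablasts, Tnf thus fell 16.0-fold by the fit, with 4 and 9 counts in plasmablasts. Lta fell 124-fold by counts, whereas the fitted fold for Ltb was 1.32 and not called.

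The ratios of these genes were also taken within each library. Tnf over Lta was 0.0761 and 0.0839 in naive cells, 0.94 and 1.07 after 3 h, 1.11 and 0.72 after 10 h, 2.92 and 2.00 after 33 h and 1.49 and 1.41 in expanded cells. Ltb over Lta was 42.0 and 44.7 in naive cells, lay between 21.6 and 25.4 at 3 and 10 h, was 18.5 and 8.90 after 33 h and reached 94.3 and 87.2 in expanded cells. With Lta at 0 and 1 counts, plasmablasts have no such ratio.

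**Figure D2:**
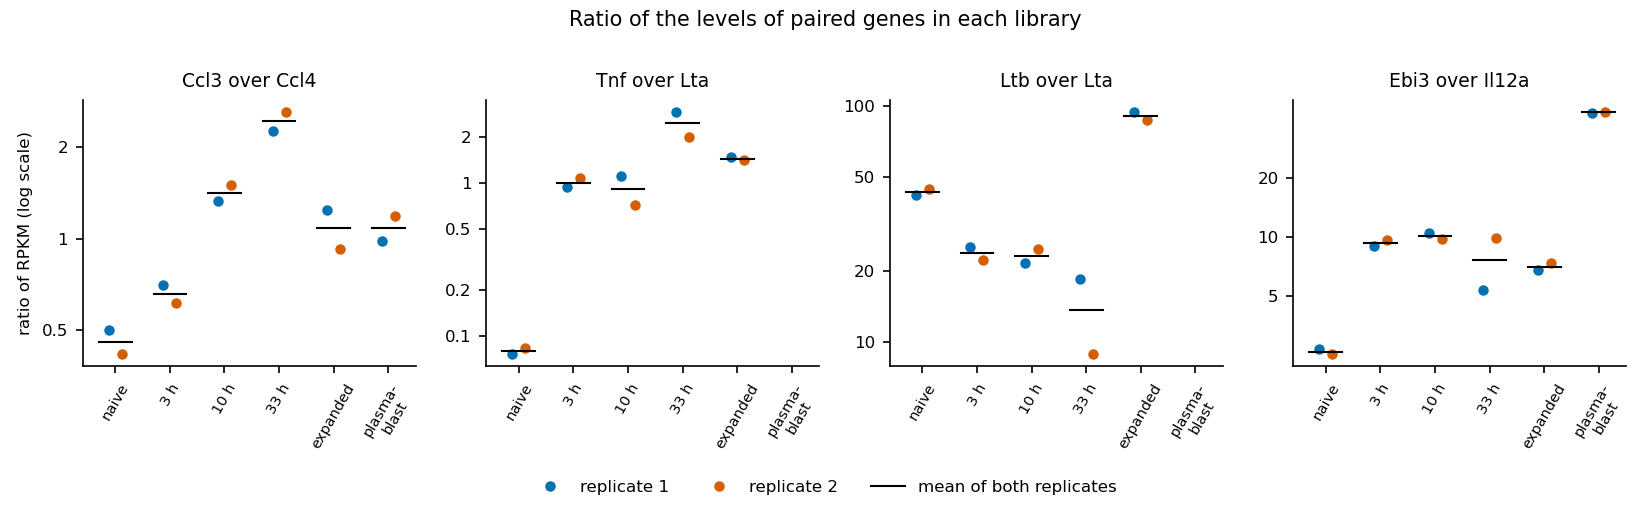
Ratio of the RPKM of 2 genes in each library on a log scale, against stage, with 1 point per replicate and a bar at the mean of both. Tnf over Lta is lowest in naive cells, near 0.08, Ltb over Lta is highest in expanded cells, Ebi3 over Il12a is highest in plasmablasts, near 43, and plasmablasts have no ratio to Lta because Lta had 0 and 1 counts there.

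Il6 encodes interleukin 6, a cytokine that B cells, T cells and the liver respond to. It was at 0 and 1 counts in naive cells, and at 0.564 and 1.36 RPKM (11 and 45 counts) after 3 h. Its level was 16.7 and 12.6 RPKM after 10 h, 6.82 and 7.82 after 33 h, 5.6 and 4.47 in expanded cells, and again 0 and 1 counts in plasmablasts. It was therefore above the floor only in the 4 stages between naive cells and plasmablasts. The rise to 3 h was 69-fold by counts (exact 95% interval for counting error 11.9 to 2770, adjusted p = 8.7e-05). From 3 to 10 h Il6 rose by 3.82 on the log2 scale (SE 0.31, adjusted p = 1.2e-06), and by 4.7 without 3 h replicate 2. The step to 33 h, -1.0 (SE 0.24, adjusted p = 0.088), did not pass, but did without either 3 h library (adjusted p = 0.033 and 0.041). The fall from expanded cells to plasmablasts was 287-fold by counts (interval 51.3 to 11400, adjusted p = 7e-07). Over this step, at which Ccl22, Tnf and Lta also fell, the summed markers of monocytes, macrophages and neutrophils went from 147 to 148 CPM down to 31.3 to 33.6 CPM. Of these 11 markers 3 fell, Mpeg1 from 101 to 0.756 CPM, Itgam from 23 to 0.0380 and Adgre1 from 13.2 to 0.248, and 2 rose, Ly6c2 from 1.62 to 17.8 CPM and Cd68 from 8.36 to 13.4. Lyz2, S100a8, S100a9 and Clec7a had no count in either stage, and Cd14 and Fcgr1 were at or below 0.151 CPM. The part of these cells in the falls was not tested.

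Il10 encodes interleukin 10, the cytokine by which regulatory B cells are usually defined. It was at 0 and 1 counts in naive cells and at 9.48 and 11.3 RPKM after 3 h, a rise of 828-fold by counts (interval 148 to 32800, adjusted p = 2.2e-06). Thereafter it was 13.3 and 13.0 after 10 h, 15.4 and 22.0 after 33 h, 11.1 and 12.1 in expanded cells and 13.2 and 30.2 in plasmablasts. Thus all 10 libraries of LPS-treated cells held it at 9.48 to 30.2 RPKM, and 0 of the 4 later transitions passed glmTreat (adjusted p from 0.19 to 0.97). The plasmablast replicates lay 2.29-fold apart. The step from expanded cells to plasmablasts was 0.91 (SE 0.31, adjusted p = 0.19), and 1.41 without plasmablast replicate 1, which passed (adjusted p = 0.0023).

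In plasmablasts, Il10 had 406 and 1118 counts where Il6 had 0 and 1. The ratio of Il10 to Il6 RPKM was 16.8 and 8.32 after 3 h, 0.80 and 1.04 after 10 h, 2.26 and 2.82 after 33 h and 1.99 and 2.70 in expanded cells.

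Tgfb1 encodes TGF-β1, made as a latent precursor that must be released to act. It was at 272 and 259 RPKM in naive cells, 549 and 448 after 3 h, 77.6 and 68.8 after 10 h, 146 and 132 after 33 h, 113 and 112 in expanded cells and 79.7 and 83.9 in plasmablasts. The 3 h libraries were highest and those after 10 h lowest. Tgfb1 rose by 0.91 on the log2 scale to 3 h (SE 0.10, adjusted p = 0.0024), fell by 2.77 to 10 h (SE 0.11, adjusted p = 5.8e-09) and rose by 0.92 to 33 h (SE 0.10, adjusted p = 0.0064). The last rise was lost without 10 h replicate 2 (0.84, adjusted p = 0.076), and the first when libraries were scaled by their totals alone (0.69, adjusted p = 0.093). The steps to expanded cells (-0.30) and to plasmablasts (-0.46) did not pass glmTreat.

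Ebi3 encodes a soluble receptor-like chain that pairs with p28 (Il27) to form IL-27 and with p35 (Il12a) to form IL-35. It was at 16.6 and 17.2 RPKM in naive cells, 45.3 and 42.0 after 3 h, 42.8 and 49.9 after 10 h, 26.8 and 33.8 after 33 h, 27.9 and 27.6 in expanded cells and 62.2 and 66.7 in plasmablasts. The naive libraries were lowest and the plasmablast libraries highest, and the levels at 3 and 10 h overlapped. Ebi3 rose by 1.37 on the log2 scale to 3 h (SE 0.12, adjusted p = 1.4e-05) and by 1.22 from expanded cells to plasmablasts (SE 0.12, adjusted p = 0.00014). It was the only one of the 10 genes that glmTreat called as a rise at that last transition.

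**Figure D3:**
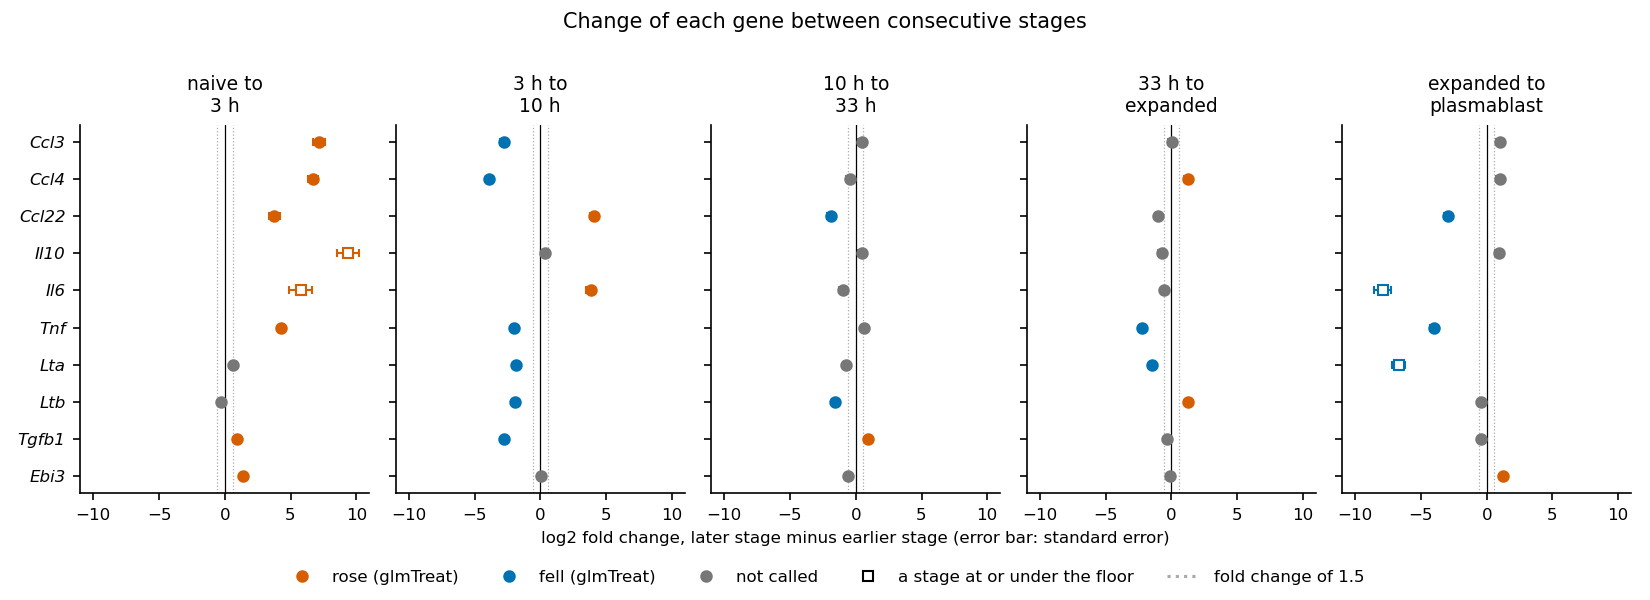
Fitted log2 fold change of each gene at each consecutive transition (later minus earlier stage), with its standard error, coloured where glmTreat called a rise or a fall. Open squares are genes with a stage at or under the floor, whose fitted value depends on the prior count, and 8 of the 10 genes are called as rises in the first panel.

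Of the partner chains of Ebi3, Il27 had at most 4 counts in any library and only Il12a was tested. Il12b and Il23a, which encode chains of the related cytokines IL-12 and IL-23, had at most 7 counts. Il12a was at 6.50 RPKM in naive cells and between 3.94 and 4.70 in the stage means from 3 h to expanded cells. It fell by 1.39 to 1.5 RPKM in plasmablasts (SE 0.22, adjusted p = 0.0023). The ratio of Ebi3 to Il12a RPKM was 2.68 and 2.53 in naive cells, between 5.35 and 10.4 from 3 h to expanded cells, and 42.8 and 43.2 in plasmablasts.

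Set against naive cells, the day 4 populations share the same naive libraries, so their values are given side by side only. In expanded cells 5 of the 10 genes were higher (Ccl3, Ccl4, Ccl22, Il10 and Il6) and 3 lower (Lta, Ltb and Tgfb1), against 24.9% and 22.2% of all genes. In plasmablasts 5 were higher (Ccl3, Ccl4, Ccl22, Il10 and Ebi3) and 4 lower (Tnf, Lta, Ltb and Tgfb1), against 26.6% and 23.4% of all genes. Ccl3 was higher by 4.83 and 5.84 on the log2 scale in expanded cells and plasmablasts, Ccl4 by 3.70 and 4.68, and Ccl22 by 4.92 and 1.97. The Ccl22 call in plasmablasts (adjusted p = 0.0091) was lost without either 3 h library (adjusted p = 0.066 and 0.072) or without plasmablast replicate 2 (adjusted p = 0.057). The log2 fold changes of Ltb were -2.47 and -2.87 and those of Tgfb1 -1.24 and -1.70. Lta was lower in expanded cells, at a log2 fold change of -3.53, and by 1440-fold by counts in plasmablasts (interval 259 to 57100). Il6 was at the floor in naive cells and plasmablasts alike, and no fold is given.

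Receptors for these ligands were also measured in the B cells. All 15 listed receptor genes were tested, and 2 rose while 7 fell from naive cells to 3 h, where 21.0% of all tested genes rose and 24.3% fell. At the following transitions 0 rose and 5 fell (17.4% and 13.4% of all genes), 1 rose and 3 fell (10.1% and 4.45%), 3 rose and 1 fell (6.94% and 3.66%), and finally 5 rose and 3 fell in plasmablasts (13.9% and 12.2%). The 5 falls from 3 to 10 h were 3 without 3 h replicate 2 or 10 h replicate 2 and when scaled by library totals alone, and the fall in expanded cells was lost without 33 h replicate 1 or expanded replicate 2. From 10 to 33 h, 2 rose without 10 h replicate 1. With DESeq2's Wald test, 4 fell from 3 to 10 h, 2 from 10 to 33 h and 0 in expanded cells. The IL-10 receptor chains moved in opposite directions at the last step. Il10ra, the ligand-binding chain, was at 29.1 RPKM in expanded cells and 2.55 in plasmablasts (log2 fold change -3.51, SE 0.18, adjusted p = 2.7e-08), while Il10rb, the chain shared with other receptors, went from 17.5 to 42.1 (1.27, SE 0.12, adjusted p = 7.3e-05). Il6st (gp130), the signalling chain of the IL-6 receptor, was at 9.75 RPKM in expanded cells and 50.0 in plasmablasts (2.36, SE 0.11, adjusted p = 2.3e-08). The IL-6 binding chain Il6ra fell by 1.72 from 10 to 33 h, to 1.41 RPKM, and rose by 2.83 to 9.94 RPKM in expanded cells (adjusted p = 8e-08).

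Of the TNF receptors, Tnfrsf1b (TNFR2) rose from 10.4 to 58.6 RPKM after 3 h (log2 fold change 2.49, SE 0.09, adjusted p = 6.9e-10) and fell by 1.65 to 18.7 RPKM after 10 h. Tnfrsf1a (TNFR1), at 1.11 RPKM in naive cells, had no count after 3 h and 0.378 RPKM in plasmablasts. Ltbr, the lymphotoxin β receptor, known mainly from stromal and myeloid cells, was at 0.444 RPKM in naive cells and at or below 0.0178 in every later stage mean. The 11 markers of monocytes, macrophages and neutrophils summed to 172 to 335 CPM in naive cells and 26.0 to 62.0 CPM after 3 h. Lyz2 was among the 9 of them that fell at this step. Cd68 and Mpeg1, the latter at a mean of 36.9 CPM after 3 h, were not called. The part of these cells in the falls of Tnfrsf1a and Ltbr was not tested. For TGF-β1, Tgfbr2 had the highest stage mean of the list, 134 RPKM in naive cells, and was at 47.1 RPKM in plasmablasts. No single consecutive transition of Tgfbr2 was called, but the fall from naive cells to plasmablasts was (log2 fold change -1.51, SE 0.13, adjusted p = 2.9e-06). The fall from naive to expanded cells, at 46.1 RPKM, was called as well (-1.54, SE 0.13, adjusted p = 3.1e-06). Tgfbr1 rose by 1.51 to 19.3 RPKM after 3 h (adjusted p = 4.1e-06), fell at the next 2 transitions to 2.81 RPKM after 33 h and rose by 1.13 in plasmablasts to 5.09 RPKM (adjusted p = 0.00079). For CCL22, the receptor gene Ccr4 was at or below 0.315 RPKM throughout. Il27ra, which encodes a chain of the IL-27 receptor, went from 26.2 RPKM in naive cells to 1.01 in plasmablasts, with calls after 3 h, in expanded cells and in plasmablasts.

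**Figure D4:**
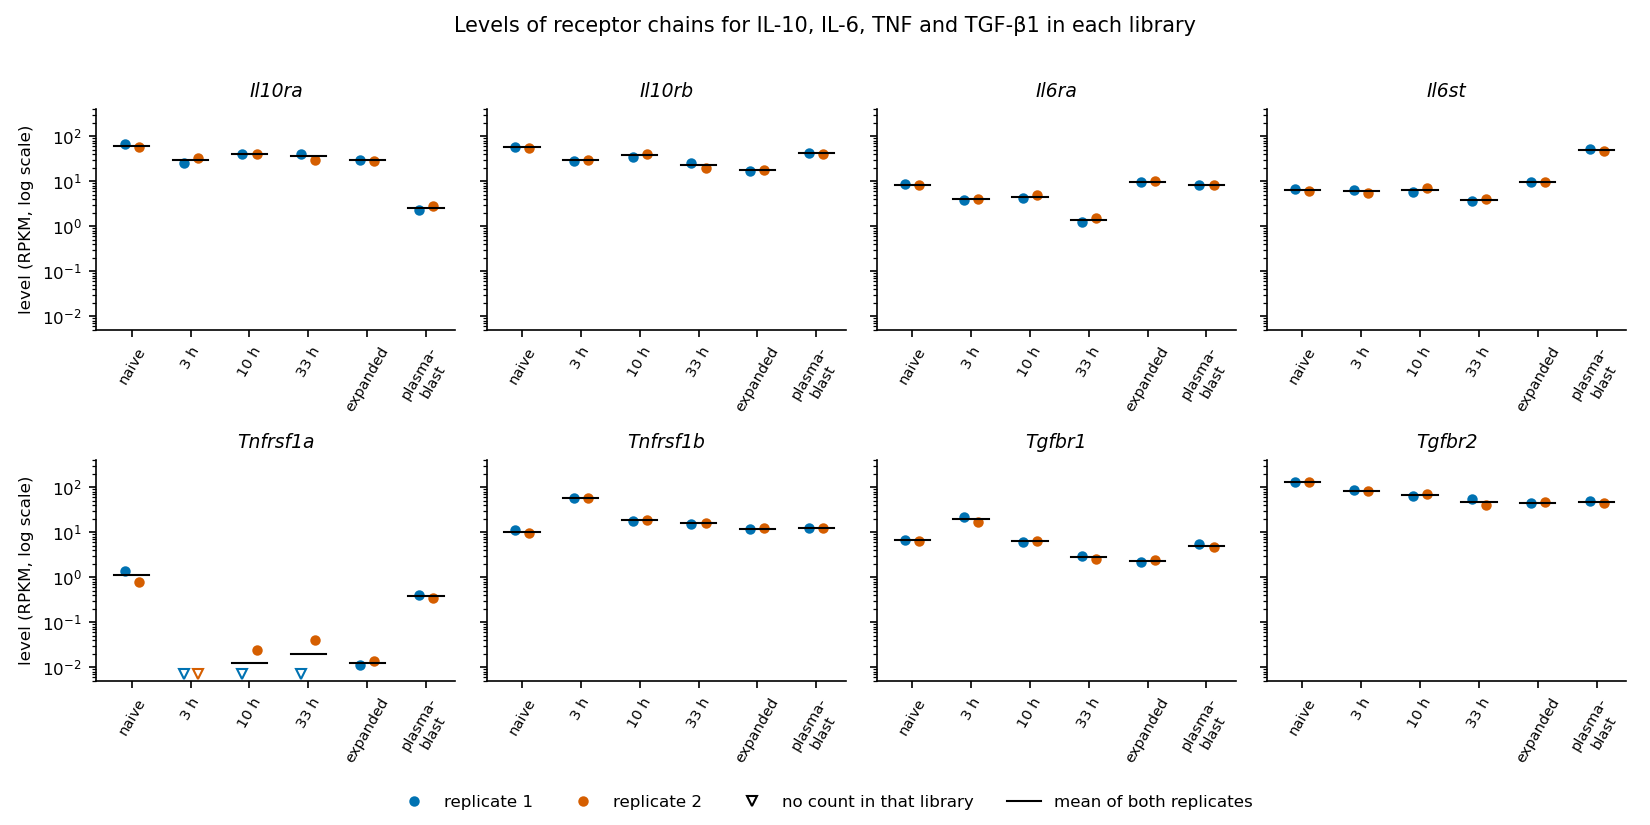
Level of 8 receptor genes in each library, as RPKM on a log scale against stage, with 1 point per replicate, a bar at the mean of both and an open triangle where a library had no count. In plasmablasts Il10ra is at its lowest (2.55 RPKM) and Il6st at its highest (50.0 RPKM), and Tnfrsf1b is highest after 3 h (58.6 RPKM).

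Of 12 genes listed for the release, activation or anchoring of these cytokines, 9 were tested. From naive cells to 3 h 1 rose and 2 fell, at the next transition 0 rose and 2 fell, at the following pair 0 were called, and in plasmablasts 3 rose and 2 fell. Over all genes 21.0% rose and 24.3% fell at the first of these steps, 17.4% and 13.4% at the second, 10.1% and 4.45% at the third, 6.94% and 3.66% at the fourth and 13.9% and 12.2% at the last. The lowest of the genes that rose in plasmablasts reached 0.241 RPKM there, with at most 35 counts in any library. In plasmablasts 2 rose without any single library other than the 3 h libraries and expanded replicate 2, with library totals alone and with the replicate block, and 1 with DESeq2's Wald test. From 3 to 10 h 1 fell without 3 h or 10 h replicate 1, and 1 rose and 1 fell with library totals alone. From naive cells to 3 h, 3 rose without 3 h replicate 2. At the steps with 0 calls, 1 gene was called without 3 h replicate 1, 33 h replicate 1 or 33 h replicate 2. Lrrc32 (GARP), which holds latent TGF-β1 at the cell surface, rose from 0.357 to 9.42 RPKM after 3 h (log2 fold change 4.71, adjusted p = 7.4e-09) and fell by 3.09 to 1.15 RPKM in plasmablasts (adjusted p = 3.2e-07). Nrros, a related anchor of latent TGF-β1, had the highest stage mean of the list, 79.3 RPKM after 3 h, and fell by 1.64 to 25.5 after 10 h (adjusted p = 2.1e-06). Adam17, the protease that sheds TNF, was at 22.1 to 45.9 RPKM in the stage means and Adam10 at 16.4 to 26.4, neither with a call. Rhbdf2, which brings ADAM17 to the surface, fell by 2.01 after 3 h (adjusted p = 7.4e-07).

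All 11 listed genes for the decay or stability of cytokine mRNA were tested. From naive cells to 3 h 7 rose and 1 fell, against 21.0% and 24.3% of all genes, and to 10 h 0 rose and 5 fell, against 17.4% and 13.4%. Scaled by library totals alone, these counts were 5 and 1, then 1 and 4. With DESeq2's Wald test, and with separate fits to the 4 libraries compared, they were 5 and 1, then 0 and 4. At the later transitions 1 rose and 1 fell (10.1% and 4.45% of all genes), 0 were called (6.94% and 3.66%), and 2 rose and 3 fell (13.9% and 12.2%). With DESeq2's Wald test, 0 rose and 0 fell from 10 to 33 h, and 2 rose and 2 fell in plasmablasts. From 10 to 33 h the fall was lost without any of the 4 libraries compared, and the rise without 10 h replicate 2 or 33 h replicate 1. Elavl1 and Arid5a, known to stabilise such mRNAs, are counted with the others. Elavl1 was among the rises to 3 h (log2 fold change 1.47, adjusted p = 0.00053), with 3 h replicates apart at 18.7 and 10.7 RPKM. Arid5a was among the falls to 10 h (-1.30) and in plasmablasts (-0.94), and was the rise from 10 to 33 h (0.93). Zc3h12a (Regnase-1), an RNase that cuts Il6 mRNA, rose from 3.66 to 231 RPKM after 3 h (log2 fold change 5.98, SE 0.16, adjusted p = 9.3e-11) and fell by 2.14 to 52.2 after 10 h. Zfp36l1, which binds AU-rich elements, rose from 140 to 511 RPKM after 3 h (1.87, SE 0.19, adjusted p = 2.1e-05) and fell by 2.43 to 94.7 after 10 h. Its relative Zfp36 (tristetraprolin), best known for the decay of Tnf mRNA, was at 176 and 138 RPKM in naive cells and after 3 h, 39.1 after 10 h and 42.7 in expanded cells, and rose by 2.12 to 185 RPKM in plasmablasts (adjusted p = 6.5e-05). Zfp36l2 fell by 1.72 after 3 h (adjusted p = 3.1e-07).

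A further 61 cytokine and chemokine genes were listed. Only 30 of them passed the filter on low counts, and the rest included Il2, Il4, Il5, Il17a and Il21. From naive cells to 3 h, 9 rose and 7 fell (21.0% and 24.3% of all genes), and at the following transitions 6 rose and 4 fell (17.4% and 13.4%), 1 rose and 11 fell (10.1% and 4.45%), 5 rose and 3 fell (6.94% and 3.66%), and 7 rose and 8 fell (13.9% and 12.2%). Apart from Cxcl10 (13.4 RPKM), the genes that fell from 10 to 33 h were at or below 1.48 RPKM after 10 h. A minimum of 10 counts in every library left 5 genes of the list to test, and 0 rose and 0 fell there. The 11 falls from 10 to 33 h were 6 without 10 h replicate 1, 3 without 33 h replicate 1 and 3 with DESeq2's Wald test, and the rises there were 0, 3 and 0. In expanded cells 3 rose without 33 h replicate 1 and 1 fell without expanded replicate 1. Mif, which encodes a constitutively made inhibitor of macrophage migration, had the highest stage mean of the list, 429 RPKM after 10 h, from 105 in naive cells and 129 after 3 h (3 to 10 h, log2 fold change 1.73, adjusted p = 7.2e-06). Il16 was at 136 RPKM in naive cells and fell by 0.93 after 3 h (adjusted p = 0.0019). Cxcl10, an interferon-induced chemokine, rose from 0.2 to 10.3 RPKM after 3 h (5.68, adjusted p = 1.5e-08). Ccl5 was at 7.01 RPKM in naive cells and 0.210 after 3 h, and rose by 6.52 to 15.0 after 10 h (adjusted p = 2.6e-06). The NK cell markers, 17.4 to 20.2 CPM in naive cells and 4.04 to 5.14 CPM after 3 h, moved with its first step, and their part was not tested. At the same step from 3 to 10 h, Ccl3 and Ccl4 had fallen. Among the paralogs of Tgfb1, singled out after their values were seen, Tgfb2 rose by 4.96 and Tgfb3 by 4.78 from expanded cells to plasmablasts, to 0.652 and 2.23 RPKM. In naive cells they were at 0.00313 and 1.99 RPKM. From naive cells to plasmablasts Tgfb3 was not called (log2 fold change 0.16).

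The courses of the genes were compared with those of all tested genes whose mean log2 CPM reached 5, by Pearson's r of log2 RPKM over the 12 libraries. These are descriptions over libraries that share stages, with no test. The 3 most alike were Eif4e2, Cdv3 and Ero1a for Ccl3 (r = 0.98 each), Cd44, Nus1 and Irf4 for Ccl4 (0.98 each), and Chordc1, Ahsa1 and Banf1 for Ccl22 (0.98 to 0.99). For Il6 they were Impdh2-ps, Impdh2 and Clns1a (0.99 each), of which the first is a pseudogene that may share reads with the second. For Il10 they were Mpp6, Pmepa1 and Lap3 (0.98 to 0.99), for Tnf Adss, Runx3 and Dhx37 (0.98 each), and for Lta Gpatch8, Cblb and Mbp (0.98 to 0.99). For Ltb they were Fam117b, Cd55 and Pde4b (0.96 to 0.97), for Tgfb1 Ppp1r18, Camk1d and Rhog (0.98 each), and for Ebi3 Napa, Mlf2 and Mrfap1 (0.96 to 0.98). Among the 10 genes themselves the highest were Ccl22 with Il6 (0.949) and Ccl3 with Ccl4 (0.942), and the lowest Il10 with Ltb (-0.693).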

How the data were processed

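RNA-Seq was deposited as counts for 12 libraries of 6 stages. The authors prepared TruSeq libraries, sequenced 81 bp paired-end reads on a NextSeq 500, aligned them to mm10 with Rsubread 1.28.0 and counted them on the inbuilt Entrez annotation with featureCounts. The submitters' processing notes also name CASAVA 1.8.2. The strand setting is not given in the sources used here, so reads of genes that overlap on opposite strands may be mixed. The deposited counts are raw, with exon lengths, and the 12 single files held the same counts as the series table.

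As in the methods of the study, genes with no annotation entry, and those of ribosomal RNA, mitochondria, sex chromosomes or variable immunoglobulin segments, were removed (84.0% to 90.6% of counts remained). Genes were filtered with filterByExpr and scaled with TMM. Quasi-likelihood fits (edgeR 4.0.16, R 4.3.3, robust mode, a one-way layout of all 12 libraries) were tested with glmTreat against a fold change of 1.5, adjusted by the Benjamini-Hochberg method. Standard errors were derived from the quasi-likelihood F statistic. RPKM used the deposited lengths, and CPM the total counts. Where a stage was at the floor of 3 counts, ratios of summed counts were given with exact 95% intervals, which cover counting error only. The fit was also run on counts simulated from its own model. That run covered only the step from expanded cells to plasmablasts, and its outcome is not used here.

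Alternatives were DESeq2 1.42.0 (its size factors or its Wald test), library totals alone, the F-test, other filters on low counts, fits without robust mode or with the newer edgeR method, a replicate term, separate fits for each pair of stages, inclusion of the removed genes, and leaving out each library in turn. The genes, the lists and the motifs were chosen with earlier results of these data known. All 10 genes were named, and of each list up to 4 genes with the highest stage mean, besides further receptors of the products of the 10 genes and chains that bind these products, which were picked with their values known. Positions were taken from GENCODE M21 and RefSeq (GRCm38.p6), the build of the files. Hi-C data were not analysed here. A sorting marker and the level of a listed receptor gene are not reported here.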

Additional observations from a re-analysis of the deposited data

How the results depend on the processing

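Over all alternatives, 1508 of 1567 log2 fold changes of the 10 genes kept their direction and their side of the threshold, 19 lost a call, 31 gained one and 9 changed direction. None of those that changed direction was a called value. They were Il6 from naive cells to plasmablasts, at the floor in both (-0.0748 with library size alone, and -2.53 to 2.68 with single libraries left out), Ccl3 from 10 to 33 h (-0.215 to 0.967 with single libraries left out), Ccl3 from 33 h to expanded cells (-0.473 to 0.710), Ccl4 from 10 to 33 h (-0.908 to 0.0693), Ebi3 from 3 to 10 h (-0.0204 to 0.197) and Ebi3 from 33 h to expanded cells (-0.289 to 0.0432).

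With separate fits to the 4 libraries compared, Ccl3 (adjusted p = 0.0041) and Ccl4 (0.022) passed as rises in plasmablasts and Il6 (0.044) as a fall from 10 to 33 h, whereas the fall of Ltb from 10 to 33 h (0.066) and the rise of Ccl4 in expanded cells (0.098) did not pass. That rise of Ccl4 was also lost with DESeq2's Wald test (0.24) and with library size alone (0.05). With no filter on low counts, Ccl3 and Il10 passed as rises in plasmablasts (0.037 each), Ccl22 as a fall in expanded cells (0.0018) and Il6 as a fall from 10 to 33 h (0.041), the last also with the newer edgeR method (0.03).

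The number of the 10 genes called from 10 to 33 h was 7 with the F-test instead of 3, and from expanded cells to plasmablasts 9 instead of 5. A minimum of 10 counts in every library left 4 of the 10 genes to test, because the others were near 0 in a stage. Of these 4, it called 3 from naive cells to 3 h, 3 from 3 to 10 h, 1 from 33 h to expanded cells, 2 from expanded cells to plasmablasts, 3 from naive to expanded cells and 4 from naive cells to plasmablasts. Leaving out 1 library at a time gave 8 to 8, 8 to 8, 2 to 4, 3 to 4 and 5 to 7 calls at the consecutive transitions, 8 to 8 for naive to expanded cells and 8 to 9 for naive cells to plasmablasts. All other settings stayed within 1.5 times the counts given.

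Library size alone moved the median log2 fold change of all genes by 0.33 from 3 to 10 h, by -0.34 from expanded cells to plasmablasts and by -0.21 from naive cells to 3 h, against at most 0.05 in size with DESeq2's size factors. Its calls over all genes were 3432 rises and 1004 falls from 3 to 10 h, where TMM gave 2221 and 1711, and 1181 and 2953 from expanded cells to plasmablasts, where TMM gave 1776 and 1553. From naive cells to 3 h they were 2091 and 3716, where TMM gave 2674 and 3100. With it, Tgfb1 passed as a fall in plasmablasts (-0.80, adjusted p = 0.018) and Ebi3 as a rise from naive to expanded cells (0.77, adjusted p = 0.046). By library size alone, 6 rather than 3 of the listed genes for the decay or stability of cytokine mRNA fell from expanded cells to plasmablasts.

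Whether same-numbered libraries came from the same mice or cultures is not stated. Deviations of same-numbered libraries correlated between -0.14 and 0.084 over 15 pairs of stages, which cannot show whether they were paired. With the replicate block, 8, 8, 3, 4 and 5 of the genes were called at the consecutive transitions, and 8 and 9 from naive cells to expanded cells and plasmablasts. Counts of 0 or 1 limit Il6, Il10 and Lta, whose largest folds carry wide intervals.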
